A study of Mus musculus with 31 samples.

Results

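The 10 immediate early genes described here are Fos, Fosb, Jun, Junb, Egr1, Egr2, Ier2, Ier3, Atf3 and Dusp1. Members were found as probe sets whose sole platform gene symbol is a member's, and for each gene the probe set with the highest mean log2(signal + 16) over all 31 arrays stood for it. All 10 genes had a probe set (12 in all, with 2 each for Jun and Egr2), of 18193 named genes on the array. Of the 10, Fos, Jun, Egr1, Egr2, Ier2, Ier3 and Dusp1 (7 genes) passed the filter on low values, as did 11777 genes in all. The filter asked for a signal above the array's own median on at least 3 arrays.

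The arrays measured gonads of mouse embryos at embryonic day 14.5. XX and XY embryos were each of 4 genotypes, and every embryo, controls included, carried the Sf1-cre transgene, which is active in somatic cells of the gonad, so germ, blood and vessel cells were not its target. Both DKO groups were homozygous for the floxed alleles of both genes (Ctnnb1f/f with Sox9f/f), Sox9KO gonads were Sox9f/f with Ctnnb1+/f, and Ctnnb1KO gonads were Ctnnb1f/f with Sox9+/f. Controls (Ctr) were Ctnnb1+/f with Sox9+/f, and thus carried 1 floxed allele of each gene and were not wild type. The XY DKO group had 3 arrays and each of the other groups 4, and an array was 1 pair of gonads freed of the mesonephros.

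Immediate early genes are transcribed within minutes of a stimulus, without new protein synthesis, when kinases such as ERK, JNK and p38 act on factors such as SRF with its ELK partners, CREB and ATF2 that already sit in the cell. Fos and Jun family proteins pair as the AP-1 factor, EGR proteins are zinc finger activators, and several members feed back on the pathway: DUSP1 removes phosphate from these kinases. The same genes are known to respond to dissection and cell handling, and some also have a steady level that differs between tissues; β-catenin (Ctnnb1) is the effector of WNT signalling in the fetal ovary, and Sox9 directs the Sertoli cells of the testis.

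The stretches just upstream of the start sites of 4 members with different patterns over the groups are shown. Those of Fos, Egr2 and Dusp1 carry letters through which such factors are known to act. The Jun stretch carries none of the letters searched. Variants of these letters were not searched, among them TGACATCA, which the Jun stretch carries. A link between letters and the patterns was not tested. Capitals mark TGACG on either strand (the core of the cAMP response element, bound by CREB and ATF proteins) and the CArG box bound by SRF. Sequences are from RefSeq, build GRCm38.p6, and run 5′ to 3′ over the 250 bases before the start site: Fos at chr12:85473640-85473889 (plus strand), Jun at chr4:95052223-95052472 (minus strand), Egr2 at chr10:67537619-67537868 (plus strand) and Dusp1 at chr17:26508473-26508722 (minus strand).
Fos: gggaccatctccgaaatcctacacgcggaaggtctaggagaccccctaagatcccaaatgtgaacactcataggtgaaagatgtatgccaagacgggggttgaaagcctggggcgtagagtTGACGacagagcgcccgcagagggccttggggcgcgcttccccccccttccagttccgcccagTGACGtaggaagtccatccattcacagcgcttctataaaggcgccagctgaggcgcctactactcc
Jun: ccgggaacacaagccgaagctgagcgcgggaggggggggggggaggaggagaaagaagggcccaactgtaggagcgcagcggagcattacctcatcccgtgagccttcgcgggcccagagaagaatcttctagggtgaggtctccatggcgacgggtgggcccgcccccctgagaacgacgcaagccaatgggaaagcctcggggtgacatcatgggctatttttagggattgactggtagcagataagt
Egr2: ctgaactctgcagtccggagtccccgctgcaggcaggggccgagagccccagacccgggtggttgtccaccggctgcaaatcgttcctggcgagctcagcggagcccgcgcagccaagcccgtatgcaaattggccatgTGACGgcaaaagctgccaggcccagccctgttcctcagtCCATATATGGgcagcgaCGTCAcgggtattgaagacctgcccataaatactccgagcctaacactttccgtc
Dusp1: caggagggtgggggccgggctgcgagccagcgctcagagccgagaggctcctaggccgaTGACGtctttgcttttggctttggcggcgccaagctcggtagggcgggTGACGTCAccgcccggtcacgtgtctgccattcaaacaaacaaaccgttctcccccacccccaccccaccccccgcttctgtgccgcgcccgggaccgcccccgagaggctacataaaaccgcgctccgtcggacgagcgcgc

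Motifs were searched on both strands over 250 bases before to 50 after each start. This was done for the 8 members with such a window (Egr2 has 5 overlapping or neighbouring ones), so not for Egr1 and Ier2. TGACG was found in windows of 6 of the 8 members and in 20.8% of all 32851 mouse windows. Counts here are by member, over any of its windows, and percentages are by window. TGACG stood at -129 and -66 in Fos and at -111 and -55 in the Egr2 window shown, while some other Egr2 windows held none. The full palindrome TGACGTCA, which overlaps TGACG, was in the Dusp1 window (at -143) and in 1.79% of all windows, and the CArG box was in Egr2 (at -72) and in 1.63%. Jun had neither, and none of the 8 held TGANTCA, the AP-1 letters (7.81% of all windows). GCGNGGGCG, the EGR letters, matched in Fosb (5.55%), and TATAAA, the TATA box letters, matched in Fos and Junb (13.6%). TCAAAG, a core of TCF sites through which β-catenin acts, matched in Junb (16%), and ACAAAG, a core of SOX sites, in 0 of 8 members (18.7%). These are letter matches and not shown to be sites, and letters farther than 250 bases upstream were not searched.

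The values were signal intensities on a linear scale, scaled by the authors so that each array has a trimmed mean of 500.0, and median signal ran from 120.6 to 168.8. Ratios of 3′ to 5′ control probe sets lay between 0.958 and 1.212 for actin and between 2.343 and 3.216 for Gapdh. Sox9 read 7.1 to 41.7 in XY Sox9KO and 8.6 to 34.9 in XY DKO, against 839.7 to 1024.9 in XY Ctr. Ctnnb1 read 11715.6 to 12764.7 in XX Ctnnb1KO and 11001.8 to 13785.6 in XX Ctr; where its probe set lies relative to the deleted exons was not analysed here, so it checks nothing. Replicate 4 of XX Ctnnb1KO read 51.1 for Xist, against 7886.2 to 8552.8 on the other 3 arrays of its group, and 29.6 for the Y-linked gene Eif2s3y, against 2516.3 to 3709.8 over the XY arrays, so it goes against its XX label in the first and not in the second. Called member differences that use that array are therefore given without it too, and without it the same count of members, 5, differed among groups by the moderated F. XY DKO replicate 3 stood apart in quality, with the lowest median signal (120.6, the next lowest array 136.7) and the highest actin ratio (1.212). Summed signals of 6 Sertoli markers (Sox9, Amh, Dhh, Cst9, Ptgds and Aard) were 3248 to 3568 in XY DKO, 1669 to 2016 in XY Sox9KO, 19807 to 23172 in XY Ctnnb1KO and 22463 to 26912 in XY Ctr, and 1597 to 2547 over the XX groups. Those of 6 pregranulosa markers (Fst, Foxl2, Wnt4, Rspo1, Irx3 and Bmp2) were 5490 to 6610 in XY DKO, 10886 to 12039 in XY Sox9KO, 1767 to 1845 in XY Ctnnb1KO and 1496 to 1710 in XY Ctr. In XX gonads they were 6625 to 7610 in DKO, 10174 to 12266 in Sox9KO, 6426 to 7752 in Ctnnb1KO and 10399 to 11502 in Ctr.

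Differences below are in log2(signal + 16), which understates the change of dim genes, from 1 limma fit over all 31 arrays. Standard errors (SE) and p-values adjusted over all 11777 genes are limma's, and a gene is called where its adjusted p is under 0.05. Separate gonad pairs were the replicates, so p-values measure the spread between embryos. In such whole-organ RNA, fewer cells of a type and less RNA per cell cannot be told apart.

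Among the 8 groups, 5 members differed by limma's moderated F: Egr1 (F 115.4, adjusted p = 1.47e-17), Egr2 (F 16.2, adjusted p = 1.45e-07), Fos (F 8.84, adjusted p = 3.99e-05), Jun (F 5.82, adjusted p = 0.000914) and Ier3 (F 3.37, adjusted p = 0.0198). That is 5 of the 7 tested, beside 55.1% of all genes, and 6 without XX Ctr replicate 4. Egr2 and Fos were among the 7 only through arrays of XX Ctnnb1KO, XX DKO and XY DKO, where their means were highest. Ier2 (F 1.94, adjusted p = 0.142) and Dusp1 (F 1.96, adjusted p = 0.140) did not pass. The 3 members below the filter were tested in a fit of all 18193 genes, where 39.9% of genes were called: Atf3 (F 2.60, adjusted p = 0.0730), Junb (F 1.62, adjusted p = 0.266) and Fosb (F 0.82, adjusted p = 0.662) did not pass.

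**Figure D1:**
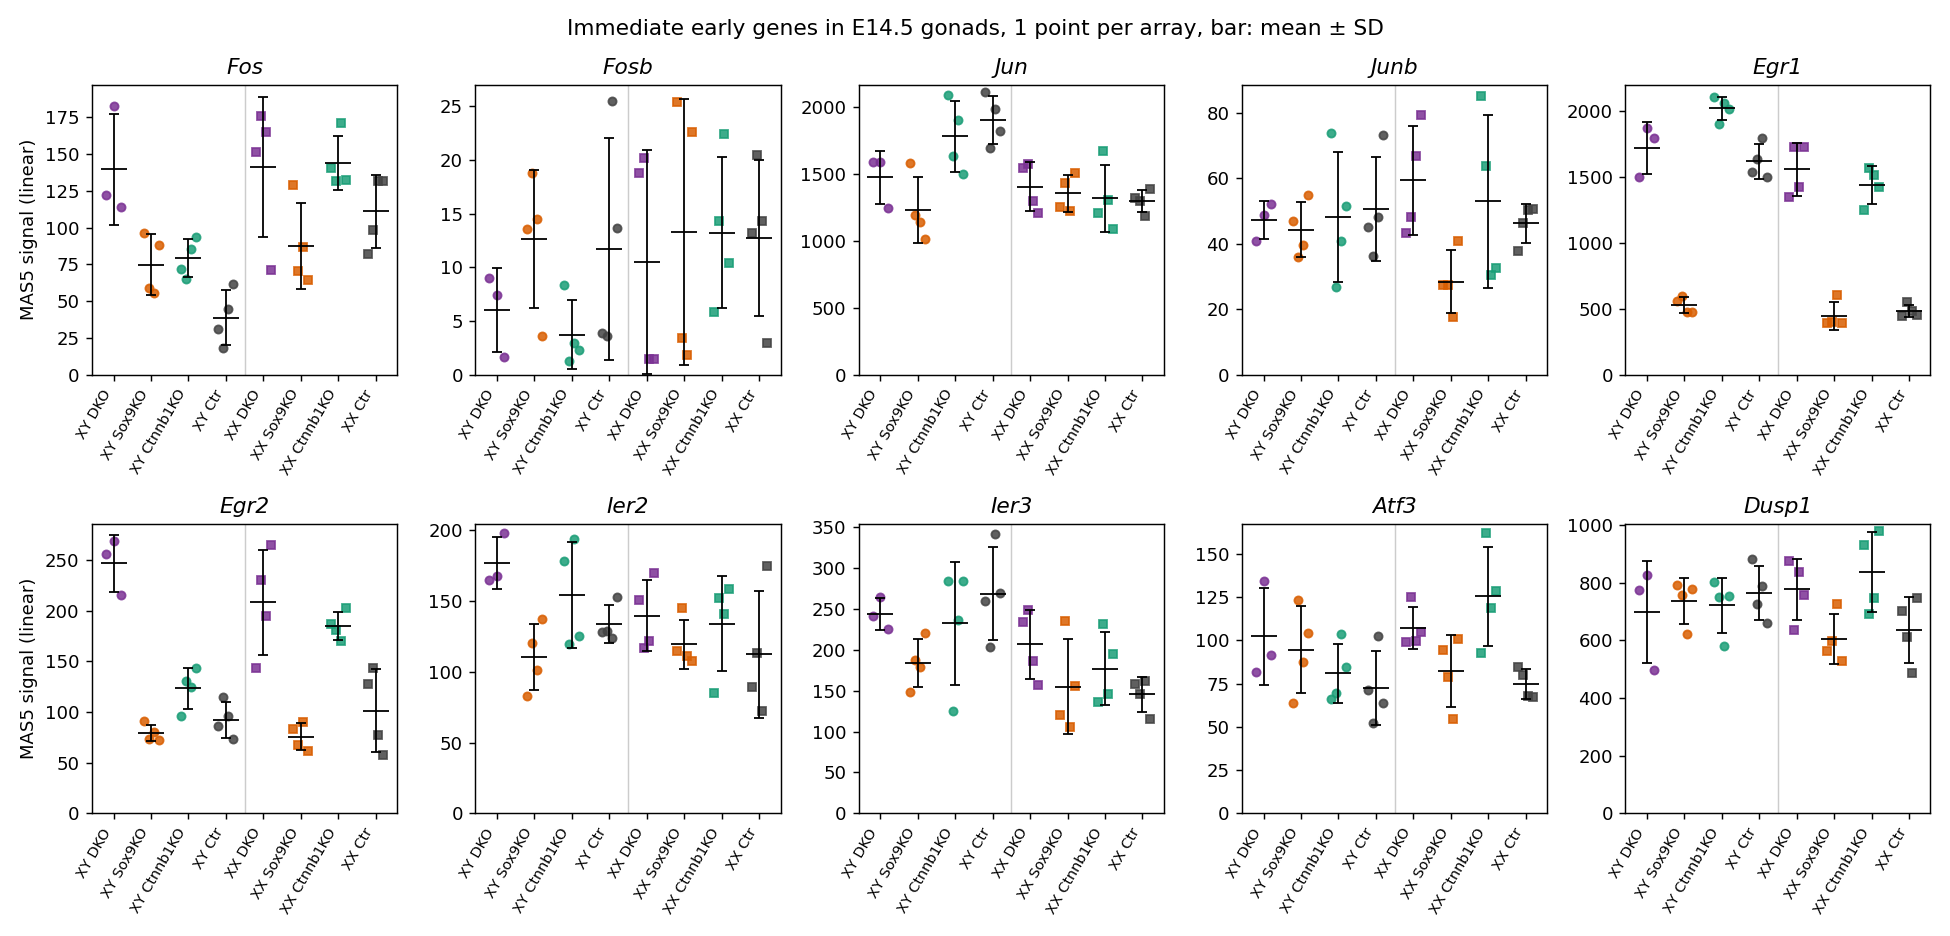
MAS5 signal (linear, each panel with its own axis from 0) of the 10 genes on each array; XY groups (circles) are left of XX groups (squares), knockouts left of controls, and bars are the mean ± SD. Egr1 falls into 2 bands, with XY Sox9KO, XX Sox9KO and XX Ctr between 389.1 and 605.3 and the other 5 groups between 1245.1 and 2106.5.

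The members differed in how much of their variation lay between groups. For Egr1 97.1% of the variance of the log2 values lay between the 8 groups, more than for 99.3% of the genes kept, and its SD between arrays of a group was 0.173, near the median gene's 0.184. Fos had the widest spread within groups of the 7 members kept (SD 0.364, with 93.3% of genes kept lower), yet 72.3% of its variance lay between groups. Ier2 and Dusp1 had 37.2% and 34.8% between groups, against 48.6% for the median gene. Fosb had 18.6%, with signals of 1.3 to 25.5 that never passed an array's median. Without XX Ctnnb1KO replicate 4 the shares were 97.1% for Egr1, 71.9% for Fos, 38.6% for Ier2, 31% for Dusp1 and 18.9% for Fosb.

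**Figure D2:**
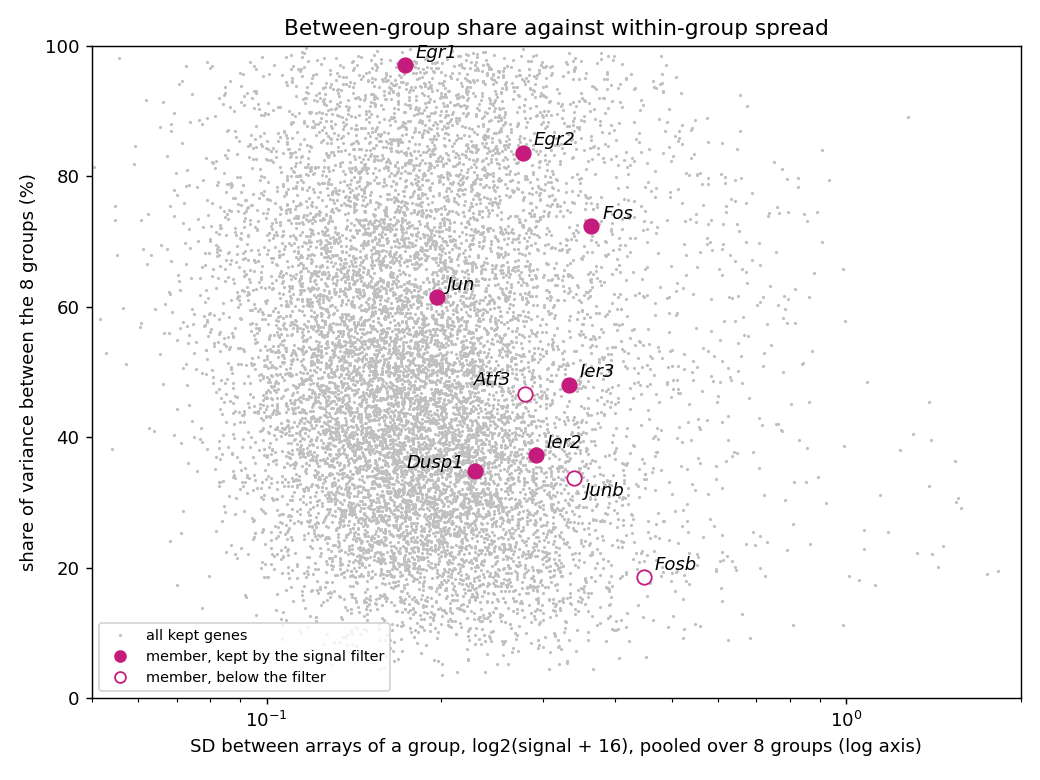
Share of variance between the 8 groups (y axis, percent) against the pooled SD between arrays of a group (x axis, log2 units, log scale); each grey point is 1 of the genes kept, filled circles are members kept and open circles members below the filter. Egr1 sits at 97.1% with an SD of 0.173, and Fosb at 18.6% with an SD of 0.447.

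Egr1, a zinc finger factor induced through ERK and SRF, was low in the 3 groups with the highest pregranulosa marker sums and high in the other 5. Signals were 1497.9, 1866.5 and 1796.6 in XY DKO, then 558.6, 598.3, 472.5 and 476.2 in XY Sox9KO, 2106.5, 1900.7, 2057.8 and 2015.8 in XY Ctnnb1KO, and 1538.1, 1636.1, 1797.6 and 1497.7 in XY Ctr. XX gonads read 1345.2, 1729.5, 1420.0 and 1727.8 in DKO, 390.2, 395.6, 605.3 and 389.1 in Sox9KO, 1245.1, 1567.7, 1516.7 and 1423.9 in Ctnnb1KO, and 447.3, 551.6, 480.4 and 452.2 in Ctr. No array of XY Sox9KO, XX Sox9KO or XX Ctr reached any array of the other 5 groups. By group mean the order was XY Ctnnb1KO, XY DKO, XY Ctr, XX DKO, XX Ctnnb1KO, XY Sox9KO, XX Ctr and XX Sox9KO, and neighbours overlapped except at the top step and between XX Ctnnb1KO and XY Sox9KO.

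XY Ctr exceeded XX Ctr by 1.71 ± 0.12 (SE; adjusted p = 6.3e-13). Within XX gonads Egr1 rose by 1.54 ± 0.12 in Ctnnb1KO (adjusted p = 8.06e-11, 16th of all genes by p; 1.55 without replicate 4) and by 1.65 ± 0.12 in DKO (adjusted p = 1.55e-11), against XX Ctr. Within XY gonads it fell by 1.59 on the log2 scale in Sox9KO (SE 0.12, adjusted p = 3.2e-12), whereas XY DKO and XY Ctr differed by 0.09 ± 0.13 (adjusted p = 0.714) and XY DKO exceeded XY Sox9KO by 1.68 ± 0.13 (adjusted p = 3.39e-11). XY Sox9KO differed from XX Ctr by 0.12 ± 0.12 (adjusted p = 0.65), and XY DKO from XX DKO by 0.15 ± 0.13 (adjusted p = 0.55). XY Ctnnb1KO arrays all lay above XY Ctr, at a difference of 0.32 ± 0.12 that did not pass (adjusted p = 1).

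Gonad markers moved in several of these comparisons. The pregranulosa sum was lower where Egr1 was higher in XX Ctnnb1KO, XX DKO and XY DKO against XY Sox9KO, with 5 of the 6 markers called lower and 1, Rspo1, called higher in each. XY DKO against XY Ctr differed in this, with 5 of 6 called higher beside an Egr1 difference of 0.09. The 4 fetal Leydig markers with a probe set of their own were Cyp11a1, Cyp17a1, Star and Hsd3b1. In XX Ctnnb1KO and in XX DKO against XX Ctr, 3 were called higher and 1, Hsd3b1, lower. All 4 were called lower in XY Sox9KO against XY Ctr and higher in XY DKO against XY Sox9KO. Star, the steroidogenic cholesterol carrier, had differences of 1.28 ± 0.12, 1.33 ± 0.12, -3.61 ± 0.12 and 2.40 ± 0.13 in these 4 comparisons. Those of Hsd3b1 were -1.345 ± 0.17, -1.23 ± 0.17, -2.57 ± 0.17 and 1.27 ± 0.19. In XY DKO against XY Ctr, where Egr1 differed by 0.09, all 4 Leydig markers were called lower. Star was at -1.21 ± 0.13 there and Hsd3b1 at -1.30 ± 0.19. Star signals were 1526.9 to 1850.4 in XY DKO, 247.6 to 387.4 in XY Sox9KO, 4504.2 to 6437.7 in XY Ctnnb1KO and 3600.3 to 4052.9 in XY Ctr. In XX gonads they were 660.8 to 851.5 in DKO, 234.4 to 309.9 in Sox9KO, 651.0 to 810.7 in Ctnnb1KO and 270.0 to 323.5 in Ctr. Of the 6 Sertoli markers, 3 were called higher in XX Ctnnb1KO, Cst9 (1.18 ± 0.14), Dhh (1.39 ± 0.17) and Ptgds (1.73 ± 0.22). Aard was called lower there (-1.37 ± 0.13). XX DKO had the same 3 higher and 2 lower, Aard (-1.29 ± 0.13) and Sox9 (-1.59 ± 0.44). All 6 Sertoli markers were called lower in XY Sox9KO and in XY DKO, each against XY Ctr. Against XY Sox9KO, XY DKO had 3 called higher and 1 lower. The part of these cell types in the Egr1 result was not tested.

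The effect of each deletion on Egr1 differed between the sexes. The change with Ctnnb1 loss was lower in XY than in XX gonads by 1.22 on the log2 scale (-1.22 ± 0.17, adjusted p = 1.46e-05; -1.23 without XX Ctnnb1KO replicate 4), that with Sox9 loss by 1.46 (-1.46 ± 0.17, adjusted p = 7.47e-08) and that with loss of both by 1.57 (-1.57 ± 0.18, adjusted p = 1.01e-07). These compare with 4.19%, 23.3% and 14.9% of all genes called in the same 3 tests, where Egr1 was 1 of 1, 1 of 3 and 1 of 2 members called. The 3 tests share their control arrays.

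**Figure D3:**
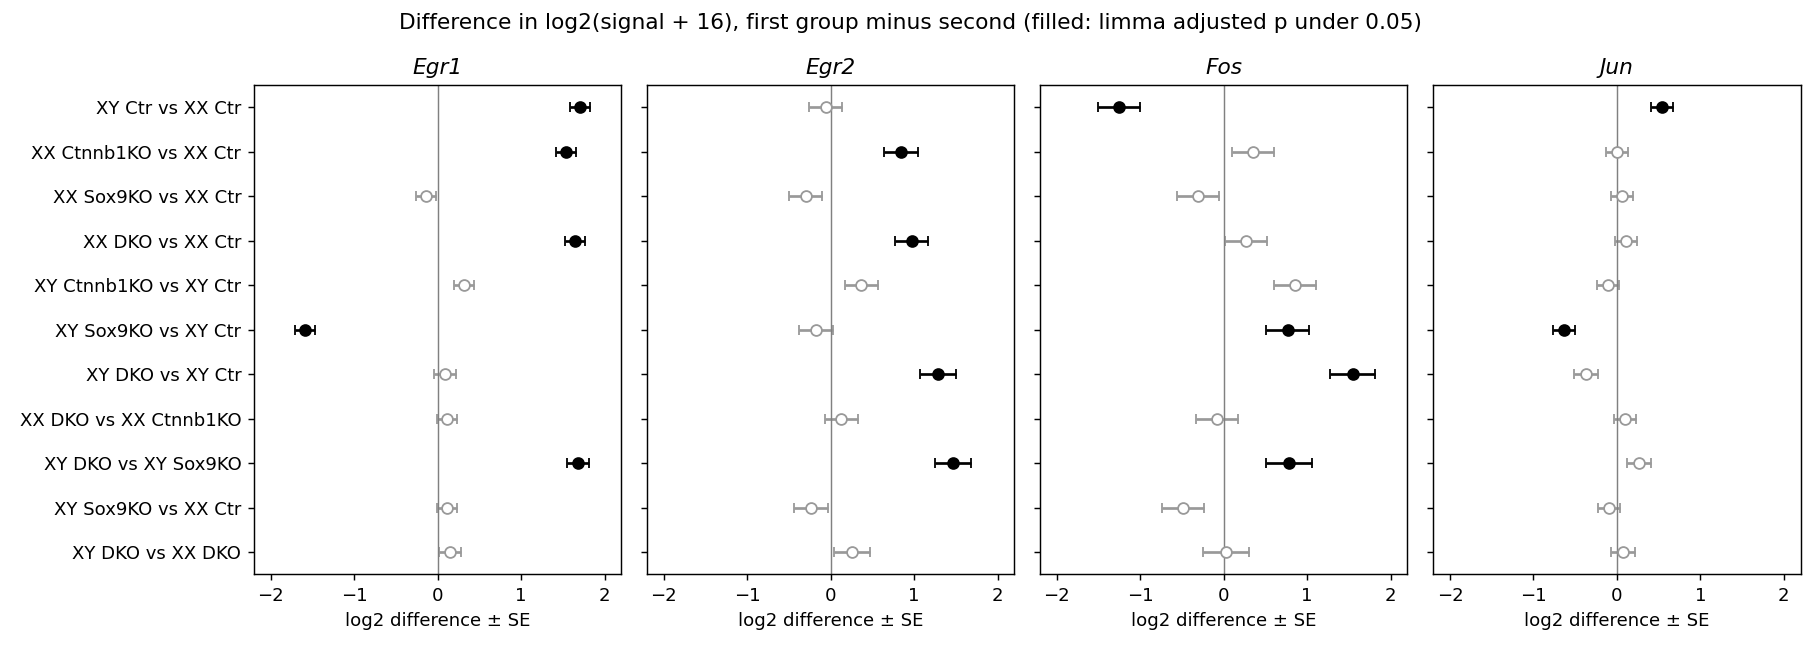
Difference in log2(signal + 16), first-named minus second-named group, ± SE (x axis) for 11 comparisons (y axis) and 4 genes; filled points passed limma's adjusted p of 0.05. Egr1 is near 1.7 in XY Ctr against XX Ctr and -1.59 in XY Sox9KO against XY Ctr, where Fos is at -1.26 and 0.76.

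Genes with group means most like Egr1's, over the 8 means, were Fgf2 (r = 0.994), Nid1 (0.993), Aqp5 (0.992), Mafk (0.990) and Kifc5b (0.988); the means come from the same arrays, so this is a description. Such an r takes no account of the size of a change. Fgf2 averaged 440.7 ± 31.8 in XX Sox9KO and 670.5 ± 29.4 in XY Ctnnb1KO, where Egr1 averaged 445.0 ± 106.9 and 2020.2 ± 87.9 (SD, n = 4). Aqp5, a water channel, averaged 454.1 ± 12.9 in XY DKO, 185.9 ± 23.4 in XY Sox9KO and 533.2 ± 118.9 in XY Ctr, and 412.8 ± 12.1 in XX DKO against 161.7 ± 36.6 in XX Ctr (SD, n = 3 or 4). Of the other members kept, Ier2 (r = 0.836) and Ier3 (0.816) were most like Egr1 by this measure, then Egr2 (0.693), Jun (0.663) and Dusp1 (0.644), and Fos was not alike (0.058).

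Egr2, a related zinc finger factor best known from hindbrain and myelin development, was high in the DKO gonads of both sexes and in XX Ctnnb1KO. Signals were 255.7, 269.0 and 214.8 in XY DKO, then 90.6, 73.7, 80.2 and 72.4 in XY Sox9KO, 95.6, 130.1, 124.7 and 143.6 in XY Ctnnb1KO, and 85.8, 115.2, 95.6 and 72.9 in XY Ctr. XX gonads read 143.4, 230.5, 194.2 and 264.1 in DKO, 82.8, 67.2, 90.5 and 61.9 in Sox9KO, 186.5, 180.7, 170.1 and 202.6 in Ctnnb1KO, and 127.6, 143.1, 76.8 and 57.7 in Ctr. The lowest XX DKO array, at 143.4, stood just above the highest XX Ctr array, at 143.1, and just below the highest XY Ctnnb1KO array, at 143.6. Unlike Egr1, it did not separate XY Ctr from XX Ctr, whose arrays overlapped.

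Egr2 rose by 0.84 ± 0.20 in XX Ctnnb1KO (adjusted p = 0.0039) and by 0.97 ± 0.20 in XX DKO (adjusted p = 0.000813), each against XX Ctr. It rose by 1.29 ± 0.22 in XY DKO against XY Ctr (adjusted p = 5.32e-05) and by 1.46 ± 0.22 against XY Sox9KO (adjusted p = 5.73e-06), while XY DKO and XX DKO differed by 0.25 ± 0.22 (adjusted p = 0.531). The sex by Ctnnb1 loss difference did not pass (-0.48 ± 0.28, adjusted p = 0.493). Egr2 passed the filter through the 11 arrays of the 3 groups where it was high, so its calls were also read in the fit of all 18193 genes, where all 4 held (adjusted p between 9.95e-06 and 0.00619). That fit called 6.52%, 8.44%, 11.5% and 14.1% of genes in the same comparisons. Without XY DKO replicate 3, the highest Egr2 array of all 31, the differences from XY Ctr and XY Sox9KO were 1.22 (adjusted p = 0.000885) and 1.40 (adjusted p = 0.000125). Its second, dimmer probe set gave 0.82 (adjusted p = 0.0524) in XX Ctnnb1KO, and a fit of the 8 arrays of that comparison alone gave an adjusted p of 0.0558; without replicate 4 of XX Ctnnb1KO the difference was 0.80 (adjusted p = 0.0163).

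Markers of macrophages and other leukocytes moved with Egr2. The summed signal of the 6 genes listed (Ptprc, Csf1r, Cd68, Fcgr3, C1qc and Tyrobp, all 6 measured and none at 0) was 3864 to 4607 in XY DKO, 2107 to 2536 in XY Sox9KO, 2178 to 3594 in XY Ctnnb1KO and 1871 to 2509 in XY Ctr. XX gonads had 3548 to 4212 in DKO, 1772 to 2124 in Sox9KO, 2889 to 4352 in Ctnnb1KO and 1660 to 2535 in Ctr. In each of the 4 comparisons where Egr2 was called, which include 3 with Egr1 and 2 with Fos higher, 5 of the 6 were called higher. Of 5 endothelial markers, which summed to 3047 to 4326 over all 8 groups, 1 was called lower in each of these 4 comparisons. In XX DKO against XX Ctr 1 was also called higher. Of 4 germ cell markers, 2 were called higher in XX Ctnnb1KO and in XX DKO against XX Ctr. In XY DKO, 2 were called higher against XY Sox9KO and 1 against XY Ctr. The part of leukocytes, endothelial cells and germ cells in these results was not tested.

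Fos, the AP-1 partner of the Jun proteins, was lowest in the control testis. Signals were 121.9, 182.6 and 114.0 in XY DKO, then 96.3, 58.8, 55.6 and 88.4 in XY Sox9KO, 72.0, 65.1, 85.5 and 93.8 in XY Ctnnb1KO, and 31.2, 17.9, 44.6 and 61.6 in XY Ctr. XX gonads read 151.6, 176.0, 165.0 and 71.4 in DKO, 128.9, 70.5, 86.5 and 64.5 in Sox9KO, 140.8, 131.5, 171.0 and 132.1 in Ctnnb1KO, and 81.8, 98.6, 131.9 and 131.8 in Ctr. Neighbouring groups overlapped at every step of the order of means, from 143.8 ± 18.6 in XX Ctnnb1KO down to 38.8 ± 18.7 in XY Ctr (SD, n = 4 each). These are dim signals: Fos passed its array's median on 5 of 31 arrays, all of them in XX Ctnnb1KO, XX DKO or XY DKO.

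XY Ctr was lower than XX Ctr for Fos (-1.26 ± 0.25, adjusted p = 0.000193), the opposite direction to Egr1 on the same arrays. Against XY Ctr, Fos rose by 1.54 ± 0.27 in XY DKO (adjusted p = 0.000112) and by 0.76 ± 0.25 in XY Sox9KO (adjusted p = 0.017). Arrays of XY Sox9KO and XY Ctr overlapped. XY DKO replicate 3, which stood apart in quality, was the highest Fos array of all 31, and without it the XY DKO difference was 1.35 (adjusted p = 0.00276). All 4 XY Ctnnb1KO arrays also lay above XY Ctr, by 0.85 ± 0.25, which did not pass over all genes (adjusted p = 0.825). In XX gonads the differences from XX Ctr were 0.26 ± 0.25 in DKO (adjusted p = 0.548) and 0.35 ± 0.25 in Ctnnb1KO (adjusted p = 0.5; 0.38 without XX Ctnnb1KO replicate 4). In the fit of all 18193 genes the differences of XY Ctr, XY DKO and XY Sox9KO had adjusted p = 0.000265, 0.000158 and 0.0223, beside 27.0%, 11.5% and 27.7% of genes called.

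The Sox9KO call was lost without XY Ctr replicate 2 (0.56, adjusted p = 0.0935), without XY Sox9KO replicate 1 (0.65, adjusted p = 0.0603) and without XY Sox9KO replicate 4 (0.69, adjusted p = 0.054), and in a fit of those 8 arrays alone (adjusted p = 0.0608). XY DKO exceeded XY Sox9KO by 0.78 ± 0.27 (adjusted p = 0.0396), which no longer passed without XY Sox9KO replicate 2 (adjusted p = 0.0852) or 3 (0.115), or without XY DKO replicate 2 (0.058) or 3 (0.184), nor in the fit of all genes (0.0536). The sex by Sox9 loss difference was 1.08 ± 0.36 (adjusted p = 0.0276) and that for loss of both genes 1.28 ± 0.37 (adjusted p = 0.018). Leaving out 1 array ended the first for 8 of 16 arrays, namely XX Ctr 3 (adjusted p = 0.0604) and 4 (0.0572), XX Sox9KO 2 (0.0569) and 4 (0.064), XY Ctr 1 (0.052) and 2 (0.0773), and XY Sox9KO 1 (0.0615) and 4 (0.0567), and ended the second for XY DKO replicate 3 (1.09, adjusted p = 0.0686).

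Jun, the partner of Fos in AP-1, was by its brighter probe set highest in the 2 XY groups with high Sertoli marker sums. It read 2090.2, 1633.6, 1905.2 and 1499.1 in XY Ctnnb1KO and 2110.0, 1696.4, 1987.9 and 1823.6 in XY Ctr, where the remaining 6 groups ran from 1011.2 to 1669.9. XY Ctr exceeded XX Ctr (1319.9, 1298.5, 1189.0 and 1389.6) by 0.54 ± 0.13 (adjusted p = 0.00143), and their arrays did not overlap, as in 34.3% of all genes. Jun fell by 0.64 on the log2 scale in XY Sox9KO (1579.5, 1190.7, 1140.0 and 1011.2; SE 0.13, adjusted p = 0.000267) against XY Ctr, and the change with Sox9 loss was lower in XY than in XX gonads (-0.69 ± 0.19, adjusted p = 0.0063). In XY DKO it read 1586.8, 1593.5 and 1246.7, below every XY Ctr array (25.5% of all genes had no overlap there), at -0.37 ± 0.14 (adjusted p = 0.0728); after quantile normalization this passed (-0.41, adjusted p = 0.0454), and the second Jun probe set gave -0.12 (adjusted p = 0.598). XY DKO differed from XY Sox9KO by 0.27 ± 0.14 (adjusted p = 0.183), which passed with the second probe set (0.52, adjusted p = 0.00738) and without XY Sox9KO replicate 1 (0.39, adjusted p = 0.0453). By the second probe set XY DKO averaged 1102.0 ± 85.2 (SD, n = 3), near XY Ctnnb1KO at 1121.0 ± 62.9 (SD, n = 4). XY Ctr averaged 1203.9 ± 110.0 and XX Ctr 773.8 ± 199.9 by that probe set (SD, n = 4 each).

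Fosb, Junb and Atf3, the other AP-1 and ATF family members, read low. Fosb ran from 1.3 to 25.5 and Junb from 17.6 to 85.2 over the 31 arrays, and neither was called in any comparison. Atf3, a stress-induced repressor, read 92.5, 161.8, 118.7 and 128.3 in XX Ctnnb1KO against 84.3, 80.0, 67.7 and 67.5 in XX Ctr. Those arrays did not overlap (13.0% of the 11777 genes kept had none), and the difference of 0.62 ± 0.21 did not pass in the fit of all 18193 genes (adjusted p = 0.0719; 0.60, adjusted p = 0.151, without replicate 4).

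Ier3, which modulates ERK signalling and survival, read 260.2, 203.8, 342.1 and 269.1 in XY Ctr against 158.1, 146.0, 162.3 and 115.3 in XX Ctr. XY Ctr was higher by 0.81 ± 0.22 (adjusted p = 0.00458), with no overlap. In XY Sox9KO it read 148.2, 187.8, 179.3 and 220.8, at -0.50 ± 0.22 against XY Ctr (adjusted p = 0.0761), which passed without XY Ctr replicate 2 (-0.62, adjusted p = 0.0437) and in a fit of the 8 arrays alone (adjusted p = 0.0331).

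Ier2, a nuclear protein of the early response, read 164.7, 167.4 and 198.0 in XY DKO against 82.9, 120.4, 100.9 and 137.2 in XY Sox9KO. The difference of 0.62 ± 0.22 passed narrowly (adjusted p = 0.0431). It was lost without XY Sox9KO replicate 1 (adjusted p = 0.124) or 3 (0.0924) and without any of the XY DKO arrays, replicates 2 (0.0686), 3 (0.0721) and 4 (0.149). Dusp1, the phosphatase that ends the kinase signal, ran from 487.4 to 979.6 and was called in 0 comparisons; its difference in XX Ctnnb1KO (930.7, 690.7, 746.1 and 979.6) from XX Ctr (700.6, 613.0, 487.4 and 745.8) was 0.39 ± 0.15 (adjusted p = 0.119; 0.31, adjusted p = 0.337, without XX Ctnnb1KO replicate 4, its highest array).

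Counted by comparison over the 7 members tested, XY Ctr against XX Ctr had 4 called (Jun, Egr1 and Ier3 higher, Fos lower), beside 37.8% of all genes. XX Ctnnb1KO and XX DKO each had Egr1 and Egr2 higher than XX Ctr, beside 10.1% (4.81% higher) and 12.9% (7.29% higher) of all genes. XY Sox9KO had 3 called against XY Ctr (Fos higher, Jun and Egr1 lower), beside 38.7%, and XY DKO had Fos and Egr2 higher than XY Ctr, beside 17.2% (9.62% higher). XY DKO had Fos, Egr1, Egr2 and Ier2 higher than XY Sox9KO, 4 of 7 beside 21.8% (11.1% higher), and 2 of 7 (Egr1 and Egr2) without XY Sox9KO replicate 3 or XY DKO replicate 2 or 3. Egr2 and Fos passed the filter only through arrays of XX Ctnnb1KO, XX DKO and XY DKO. In the fit of all 18193 genes Egr2 stayed called in these 4 comparisons, beside 6.52%, 8.44%, 11.5% and 14.1% of genes. Fos stayed called there in XY DKO against XY Ctr and was lost, with Ier2, in XY DKO against XY Sox9KO.

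The other comparisons had 0 members called. For XX Sox9KO against XX Ctr (0.0% of all genes), XX DKO against XX Ctnnb1KO (0.0%), XY Sox9KO against XX Ctr (0.628%) and XY DKO against XX DKO (5.22%), limma gave 0 of 7 also at an unadjusted p under 0.05, where 4.56%, 8.19%, 18.1% and 21.3% of all genes lay. For XY Ctnnb1KO against XY Ctr (0.0679%) it gave 2 of 7 at that level, Fos and Egr1, beside 4.02% of all genes, and these were the members whose arrays did not overlap there, as in 3.5% of all genes. The comparisons against the same control share its arrays.

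Array by array, deviations of most members from their group means were weakly correlated. Over the 45 pairs of members, the correlation of deviations over 31 arrays had a median of 0.04 and ran from -0.35 (Egr2 with Ier2) to 0.52 (Ier3 with Atf3), and 28 pairs were above 0. Above 0.4 were 3 pairs, the others being Fosb with Atf3 (0.45) and with Jun (0.41), and 0 were below -0.4. Fosb, Junb and Atf3 were below the filter and Fos was dim, which limits what low correlations can show. Fos, tested against the 9 others by permutation within groups (100000 permutations, two-sided), had Pearson r between -0.30 and 0.30 (adjusted p between 0.873 and 0.898) and Spearman rho between -0.17 and 0.21 (adjusted p between 0.893 and 0.953). Without the 2 arrays with the most extreme Fos deviations, XY Ctr replicate 2 and XX DKO replicate 4, r ran from -0.12 to 0.14. Genes whose deviations were most like those of Fos were Ccdc28a (r = 0.712), Lig1 (0.711), Smug1 (0.689), Txnrd3 (0.684) and Btbd18 (0.674), none of them in the lists of early response genes used here. They were picked as the highest r over all genes kept and were not tested, so this is a description.

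**Figure D4:**
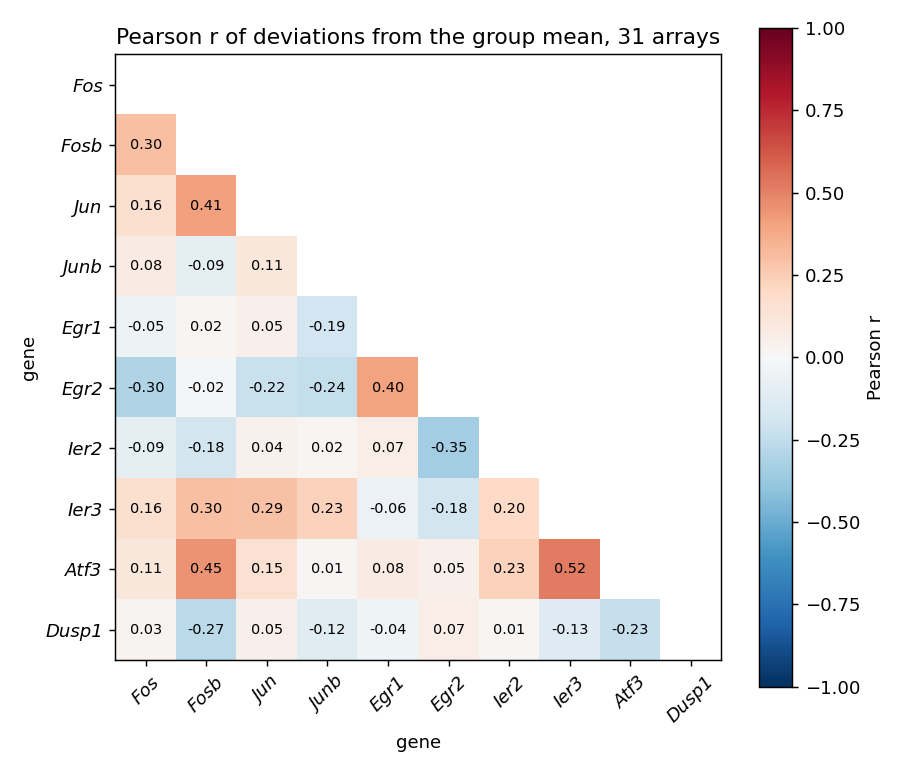
Pearson r between pairs of the 10 genes (both axes) of their deviations from the group mean of log2(signal + 16), over 31 arrays; red is positive and blue negative. The highest value is 0.52 for Ier3 with Atf3, and Fos lies between -0.30 and 0.30 with every other gene.

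Most other genes of the early response that were tested also differed between groups. Of 33 listed, 26 were kept and 23 differed among groups by the moderated F, beside 55.1% of all genes. In XY Ctr against XX Ctr 13 were higher and 2 lower (37.8% of all genes called; median 0.27, against -0.02 over all genes), in XY Sox9KO against XY Ctr 6 were higher and 13 lower (38.7% called; median -0.31, against 0.05), and in XY DKO against XY Sox9KO 14 were higher and 1 lower (21.8% called; median 0.36, against -0.02). XX Ctnnb1KO had 8 higher and 1 lower than XX Ctr (10.1% called), and 5 higher and 0 lower without its replicate 4. XX DKO had 10 higher and 0 lower (12.9% called).

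The orphan nuclear receptor gene Nr4a1 averaged 235.8 ± 14.3 in XY DKO, 73.1 ± 10.2 in XY Sox9KO and 248.0 ± 4.0 in XY Ctr, and 135.8 ± 19.7 in XX DKO, 117.3 ± 17.3 in XX Ctnnb1KO and 73.5 ± 19.4 in XX Ctr (SD, n = 3 or 4). Its fall in XY Sox9KO against XY Ctr was -1.58 ± 0.17 (adjusted p = 8.37e-09). Ccn1, a matricellular protein gene, had -1.28 ± 0.17 there (adjusted p = 4.58e-07) and Ier5 -0.85 ± 0.09 (adjusted p = 7.18e-09). Klf2, a zinc finger factor of endothelium and T cells, was high in the same 3 groups as Egr2: 804.1 ± 132.2 in XY DKO against 375.2 ± 27.3 in XY Ctr (1.06 ± 0.13, adjusted p = 5.76e-07), and 819.4 ± 31.3 in XX DKO against 399.5 ± 70.7 in XX Ctr (1.02 ± 0.12, adjusted p = 3.55e-07).

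Feedback genes of the ERK pathway were mostly high in the control testis. Of 11 listed, 9 were kept: 7 were higher and 1 lower in XY Ctr against XX Ctr (37.8% of all genes called; median 1.19, against -0.02 over all genes), and 1 was higher and 7 lower in XY Sox9KO against XY Ctr (38.7% called; median -0.80, against 0.05). Dusp6, the ERK phosphatase, averaged 737.3 ± 154.9 in XY DKO, 446.9 ± 102.9 in XY Sox9KO and 1107.9 ± 127.2 in XY Ctr, and Etv5, an ETS factor, 1246.0 ± 162.8, 576.4 ± 192.4 and 1410.6 ± 168.1 in the same groups. Dusp4 fell too in XY Sox9KO (-1.76 ± 0.20, adjusted p = 2.37e-08). Dusp5 was the exception, at 821.0 ± 110.0 in XY Sox9KO against 261.2 ± 15.9 in XY Ctr (1.59 ± 0.17, adjusted p = 8.7e-09).

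Upstream of the members, of 15 listed kinases and factors 12 were kept and 6 differed among groups, a share no higher than the 55.1% of all genes; the largest F were those of Mapk14 (p38), at 0.48 ± 0.09 in XY Sox9KO against XY Ctr (adjusted p = 0.000112), Elk4 (-0.42 ± 0.09, adjusted p = 0.00052), Srf (-0.34 ± 0.10, adjusted p = 0.00889) and Mapk8, a JNK, called in XY DKO against XY Sox9KO (-0.49 ± 0.14, adjusted p = 0.0132). Of 9 EGR and AP-1 partners 6 were kept and 5 differed (55.1% of all genes), among them Nab2 and Nab1, corepressors of EGR proteins, at -0.60 ± 0.16 (adjusted p = 0.0028) and -0.43 ± 0.12 (adjusted p = 0.00386) in XY Sox9KO, with Atf2 and Maf.

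Heat shock genes, which also respond to handling, were called in 4 of 8 cases in XY Ctr against XX Ctr, 4 higher and 0 lower, beside 37.8% of all genes. Hspa1b averaged 752.9 ± 172.7 in XY DKO, 252.3 ± 41.5 in XY Sox9KO and 1687.3 ± 310.5 in XY Ctr, and 280.8 ± 51.3 in XX DKO against 282.1 ± 90.1 in XX Ctr. Hspa1b and Hspa1a are near-identical, so their signals may not be separate; Hspb1 (0.99 ± 0.13, adjusted p = 3.33e-07) and Hspe1 (0.43 ± 0.12, adjusted p = 0.00455) were the other 2 called in XY Ctr against XX Ctr. In XX DKO against XX Ctr, where Egr1 and Egr2 rose, 1 of the 8 was called, Hspe1, beside 12.9% of all genes. The part of handling in these results was not tested.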

How the data were processed

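RNA of 31 pairs of gonads was amplified from 40 ng and hybridised to 1-colour arrays, per the labels' protocols. The deposited values are signal intensity per probe set on a linear scale, which the authors derived with MAS5 (named without version in the submitters' processing notes). No background correction or scaling was added. Probe sets (45101, 64 of them controls) were named from the platform annotation and RefSeq: 34945 had 1 symbol, 932 several and 9160 none. The brightest probe set stood for a gene. Values were log2(signal + 16), and genes above an array's own median on at least 3 arrays were fitted as 8 group means with limma 3.58.1 in R 4.3.3 (empirical Bayes with trend), adjusted by Benjamini-Hochberg with a threshold of 0.05. Differences are first minus second group, and sex by loss terms are the change in XY minus that in XX. Amplification from little RNA can favour transcript ends, and array number, not read depth, limits precision. The scripts were tested on simulated data.

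The members and lists were chosen with earlier results of these data known. Besides all members, up to 4 genes of each list were named by the smallest adjusted p of the moderated F, and the 5 genes most like the member with the largest F in group means, and most like the kept member with the largest within-group SD in deviations. The alternatives tried are given below: no filter, log2(signal + 1), log2(signal + 64), quantile normalization, the second probe set of Jun and Egr2, a replicate block, the arrays of 1 comparison alone and each array left out. Listed genes with no probe set of their own, Insl3 among them, were not analysed here.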

Additional observations from a re-analysis of the deposited data

Results flagged for a closer look

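Egr1 in XX Sox9KO replicate 3 read 605.3, against 389.1 to 395.6 on the other 3 arrays of its group, a gap beyond Dixon's 95% critical value for 4 samples. It was 1 of 70 such groups of values of the members tested, and chance flags about 1 in 20.

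The effect of a deletion differed between XY and XX gonads, by an interaction term in limma, in 6 cases. For Egr1 the terms were -1.22 with Ctnnb1 loss, -1.46 with Sox9 loss and -1.57 with loss of both. For Fos they were 1.08 with Sox9 loss and 1.28 with loss of both, and for Jun -0.69 with Sox9 loss.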

How the results depend on the processing

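Over 891 values under alternatives, 33 kept their direction and lost the call, 5 gained one and 7 changed sign. Members called were 1 and not 2 in XX Ctnnb1KO against XX Ctr with the second probe set of Jun and Egr2 and with the arrays of that comparison alone. They were 2 and not 4 in XY DKO against XY Sox9KO with no filter, quantile normalization or the arrays of that comparison alone, and 2 to 4 with 1 array left out. For sex by double loss they were 1 and not 2 with its own arrays alone, and 1 to 2 with 1 array left out (1 without XY DKO replicate 3). Fos in XY DKO against XX DKO, not called, ran from -0.24 (without XX DKO replicate 4) to 0.14 with 1 array left out, and was -0.17 without XY DKO replicate 3. Correlations of Fos deviations that changed sign without the 2 most extreme arrays were those with Jun (-0.01), Egr1 (0.06), Ier3 (-0.04) and Dusp1 (-0.01), and, with quantile normalization, that with Ier2 (0.11). Of the called differences not shown above as lost, Fos with sex by double loss was lost with its own arrays alone (adjusted p = 0.052), and Fos in XY DKO against XY Sox9KO with quantile normalization (adjusted p = 0.0676), log2(signal + 1) (0.0549) and its own arrays alone (0.0629). Ier2 in that comparison was lost with no filter (0.0615), quantile normalization (0.0608) and its own arrays alone (0.0646).

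Replicate numbers are not stated to mark litters or batches, and whether they do cannot be told from these values. Correlations of same-numbered deviations were all above 0 in XY Sox9KO against XX Ctr (0.048 to 0.287) and XY DKO against XY Ctr (0.058 to 0.223). They were also above 0 in XY DKO against XX DKO (0.000508 to 0.363). In each other comparison at least 1 was below 0. With a replicate block, 1 called difference was lost, Ier2 in XY DKO against XY Sox9KO (0.58, adjusted p = 0.0553). The cause of these changes was not tested.

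Counts over all genes moved by over 1.5 times in a few comparisons: XY DKO against XY Sox9KO had 2572 genes and 1705 with its own arrays alone. XY Sox9KO against XX Ctr had 74, 30 with no filter, 116 with quantile normalization, 7 with its own arrays alone and 8 to 228 with 1 array left out. XY DKO against XX DKO had 615, 179 with its own arrays alone and as few as 349 with 1 array left out. XY Ctnnb1KO against XY Ctr had 8, and 5 without XY Ctnnb1KO replicate 4. Members called stayed at 0 in the last 3 comparisons named.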
